A study of Rattus norvegicus with 9 samples.

Results

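Immediate early and activity-regulated genes were followed in the sensory ganglia of diabetic rats given FK1706. The 10 genes, of 10411 on the array with a symbol of their own, were Egr1, Jun, Junb, Nr4a1, Klf2, Klf4, Arc, Dusp1, Dusp6 and Zfp36. Every probe set that the array's annotation gives to 1 of these symbols alone was taken, which gave 19 of the 15866 probe sets that are not controls. The probe sets were taken by symbol alone, with no threshold on a measured value. Of the 19 probe sets, 14 had a mean over all 9 arrays at or above the 40th percentile and were tested among 9520 probe sets, and each of the 10 genes had at least 1 tested probe set.

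The study measured RNA from the lumbar dorsal root ganglia L4 to L6 of Sprague-Dawley rats, which hold the cell bodies of the sensory neurons of the hind limb. Normal rats given vehicle, rats injected with streptozotocin (STZ) and given vehicle, and rats injected with STZ and given FK1706 formed the 3 groups. STZ destroys the insulin-producing beta cells and gives a chemical model of insulin-deficient diabetes, and FK1706 is an immunophilin ligand. Ganglia were collected after 1, 2 and 3 weeks of dosing, and equal amounts of RNA from 5 rats were pooled for each group and week, so each of the 9 arrays is 1 pool. FK1706 dose, age and sex of the rats and their blood glucose are not given in the sources used here, and no group of normal rats received FK1706. With 1 pool per group and week, the p-values measure the spread between pools, and that spread also takes in any shift of a group difference over the weeks.

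Immediate early genes are transcribed within minutes of a stimulus from transcription factors that already sit in the cell, such as the serum response factor and CREB, and need no new protein for it. Depolarisation, growth factors, cytokines and injury all induce them, in neurons as well as in glia, vessels and immune cells. Many of their products are transcription factors that set the later response, and others, such as the Dusp phosphatases and Zfp36, switch the signal off again. Their transcripts are short-lived, so a level in whole tissue is a snapshot at the time of collection.

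The promoters of the genes with the largest differences in size, Egr1 and Junb, are shown because Egr1 is the textbook target of the serum response factor, whose binding element is the CArG box. Each sequence runs 5′ to 3′ from 250 bases before to 50 bases after the RefSeq start of the gene in the GRCr8 assembly, on the plus strand, at chr18:26736828-26737127 for Egr1 and chr19:40080876-40081175 for Junb. Capitals mark CArG boxes in Egr1 and the TATA box TATAAA in Junb.
Egr1: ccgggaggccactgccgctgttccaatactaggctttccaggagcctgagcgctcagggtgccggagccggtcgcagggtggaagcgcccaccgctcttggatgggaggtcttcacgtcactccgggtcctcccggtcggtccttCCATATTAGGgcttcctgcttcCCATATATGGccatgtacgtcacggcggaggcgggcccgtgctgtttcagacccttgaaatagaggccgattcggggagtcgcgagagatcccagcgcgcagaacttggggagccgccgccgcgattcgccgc
Junb: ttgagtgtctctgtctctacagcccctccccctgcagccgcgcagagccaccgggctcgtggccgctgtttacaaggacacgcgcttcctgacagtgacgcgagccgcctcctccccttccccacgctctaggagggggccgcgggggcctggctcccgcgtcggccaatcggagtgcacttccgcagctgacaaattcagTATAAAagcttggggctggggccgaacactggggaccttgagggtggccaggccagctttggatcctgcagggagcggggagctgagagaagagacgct
The Egr1 window held 2 CArG boxes, which begin at positions -105 and -83 from the start, and the Junb window held 1 TATA box, which begins at -49. The RefSeq table held promoters of 7 of the 10 genes (not Jun, Arc or Klf2). On either strand, a CArG box was present in 1.64% of all 33469 promoters and, among the 7, in Egr1 and Zfp36. The cyclic AMP response element TGACGTCA was present in 1.83% of promoters and in Dusp1. The GC box GGGCGG was present in 33.1% of promoters and in Nr4a1, Dusp1 and Zfp36, and TATAAA in 14.2% and in Junb and Klf4. The AP-1 site TGACTCA (4.63% of promoters), the EGR site GCGTGGGCG (0.544%) and the NBRE AAAGGTCA (1.43%), the response element of Nr4a1, matched in no window of the 7 genes. These matches describe the letters of the windows only.

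Values below are log2 signal after an offset was added to the deposited signal and the 9 arrays were put on one scale by quantile normalization. They compare pools for 1 probe set, and say nothing of levels between probe sets. The 2% trimmed mean of the deposited signal ran from 360 to 532 over the arrays and was lowest in week 3 in each group, and log2 values of the arrays correlated with each other at 0.969 to 0.981. All 11 sensory neuron markers lay at or above the filter, and their summed signal was alike in the 3 groups, from 70453 to 72878. Summed signal of the 7 macrophage markers on the array, of which Cd68 and Itgam lay below the filter, was 3279 to 3434 in normal pools, 2802 to 3222 in STZ vehicle pools and 3048 to 3260 in FK1706 pools. For the 6 fibroblast markers it was 24954 to 33761, 20200 to 25123 and 22286 to 26914. Whether fewer cells of a type or less RNA per cell lies behind a lower level cannot be told apart in pooled ganglia.

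None of the 14 tested probe sets passed the adjusted threshold of 0.05 in limma in any of the 3 comparisons between groups. For diabetic against normal ganglia with vehicle, 0.063% of the 9520 probe sets tested passed (6 in number), and the smallest adjusted p was that of Txnip, which encodes a glucose-induced inhibitor of thioredoxin, at 0.67 (SE 0.0727, adjusted p = 0.0115). At an unadjusted p under 0.05 stood 3 of the 14 probe sets, those of Egr1, Junb and 1 of 3 for Dusp6, against 8.7% of all probe sets. For FK1706 against vehicle in diabetic rats, 0.0% of all probe sets passed, and Junb was the 1 early gene probe set at an unadjusted p under 0.05, against 3.37% of all. For FK1706-treated diabetic against normal ganglia, 0.0% passed, and Egr1 and the same Dusp6 probe set stood at an unadjusted p under 0.05, against 8.16% of all. The median log2 difference of the 14 probe sets was 0.04, 0.00 and -0.03 in the 3 comparisons, beside 0.00 for all probe sets in each. The median size of the difference was 0.17, 0.12 and 0.12, beside 0.10, 0.07 and 0.10 for all probe sets, and the median SD over the 9 arrays was 0.206 beside 0.153. The 14 were not matched to other probe sets by signal, so these values do not show whether early genes vary more at a given signal.

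**Figure D1:**
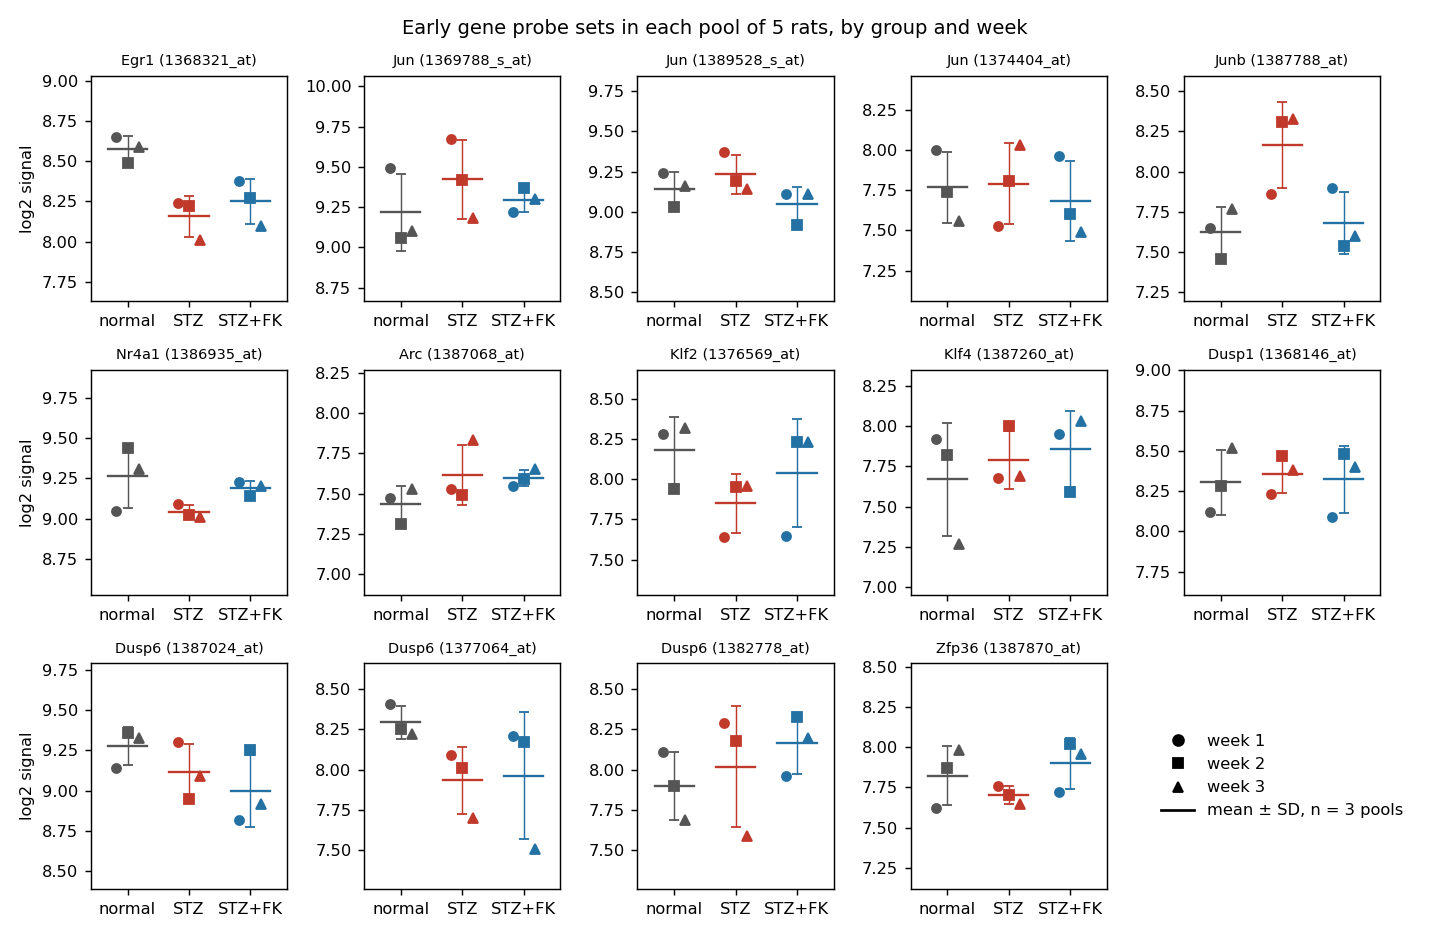
Log2 signal of the 14 tested early gene probe sets in each pool of 5 rats, by group (x axis), with weeks 1, 2 and 3 as circles, squares and triangles and the mean ± SD of 3 pools as lines. Each panel has its own log2 axis of equal span. The STZ vehicle and FK1706 pools of Egr1 lie below all normal pools, and the STZ vehicle pools of Junb lie above them.

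Egr1, a zinc finger transcription factor induced by ERK signalling, was lower in all 6 diabetic pools than in the 3 normal pools. In weeks 1, 2 and 3 its log2 signal was 8.65, 8.49 and 8.59 in normal pools, 8.24, 8.22 and 8.01 in STZ vehicle pools and 8.38, 8.27 and 8.10 in FK1706 pools. After normalization the normal range did not overlap either diabetic range, while the diabetic ranges overlapped each other. In deposited signal, the week 3 normal pool (326.4) lay below the week 1 STZ vehicle (330.6) and FK1706 (334.1) pools, so these ranges overlapped. Within each week, deposited signal was lower in both diabetic pools than in the normal pool. The log2 level was 8.58 ± 0.0777 (SD, n = 3) in normal pools, 8.16 ± 0.131 in diabetic pools with vehicle and 8.25 ± 0.142 in those with FK1706. The STZ vehicle pools were lower than normal by a log2 difference of -0.42 (SE 0.113, 95% interval -0.67 to -0.17), which is 1.34-fold, with an unadjusted p of 0.00343 and an adjusted p of 0.339 in limma. Week by week this difference was -0.40, -0.27 and -0.59. With FK1706 the difference from normal was -0.33 (SE 0.113, 95% interval -0.58 to -0.08, adjusted p = 0.496), or -0.27, -0.22 and -0.50 by week. FK1706 against vehicle in diabetic rats gave 0.09 (SE 0.113, 95% interval -0.16 to 0.34, adjusted p = 0.999). Both comparisons with normal share the normal pools. On the deposited scale, where the median of all probe sets was itself -0.10 and -0.17, the differences from normal were -0.52 (adjusted p = 0.0999) and -0.49 (adjusted p = 0.0618). Summed macrophage markers were also lower in every diabetic pool than in every normal pool, and summed fibroblast markers were lower than normal in each week in both diabetic groups. Summed signal of the 5 Schwann cell markers on the array, all above the filter, was 29651 to 30809 in normal pools, 26627 to 30541 in STZ vehicle pools and 27713 to 28847 in FK1706 pools, of which the last lay wholly below normal. For the 5 satellite glia markers on the array, all above the filter, both diabetic ranges overlapped the normal one. Their summed signal was 15386 to 16645 in normal, 16222 to 16903 in STZ vehicle and 15586 to 15921 in FK1706 pools. Summed endothelial, smooth muscle and pericyte, skeletal muscle, neutrophil and red blood cell markers also overlapped the normal range in both diabetic groups. The part of all these markers in the Egr1 values was not tested.

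Junb, a member of the AP-1 family that pairs with Fos proteins, had the largest SD over the 9 arrays of the 14 tested probe sets, 0.32. In weeks 1, 2 and 3 it was at 7.65, 7.46 and 7.77 in normal pools, 7.86, 8.31 and 8.33 in STZ vehicle pools and 7.90, 7.54 and 7.60 in FK1706 pools. The STZ vehicle pools lay above all normal pools, and the week 2 and week 3 STZ vehicle pools stood apart from the other 7. Group levels were 7.62 ± 0.154, 8.17 ± 0.266 and 7.68 ± 0.191 (SD, n = 3 each). STZ vehicle against normal gave 0.54 (SE 0.17, 95% interval 0.17 to 0.92), 1.46-fold, with an unadjusted p of 0.0088 and an adjusted p of 0.447 in limma. By week the difference was 0.21, 0.85 and 0.56. FK1706 against vehicle gave -0.49 (SE 0.17, 95% interval -0.86 to -0.11), 1.4-fold, with an unadjusted p of 0.0158 and an adjusted p of 0.999. By week it was 0.04, -0.77 and -0.72, and the ranges overlapped through the week 1 FK1706 pool. Both values use the same STZ vehicle pools, so a high pool there moves them in opposite directions. FK1706 against normal gave 0.06 (SE 0.17, 95% interval -0.32 to 0.43, adjusted p = 0.949), and -0.08 on the deposited scale, where the median of all probe sets was -0.17. Without week 1, FK1706 against vehicle was -0.75 (adjusted p = 1.0).

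**Figure D2:**
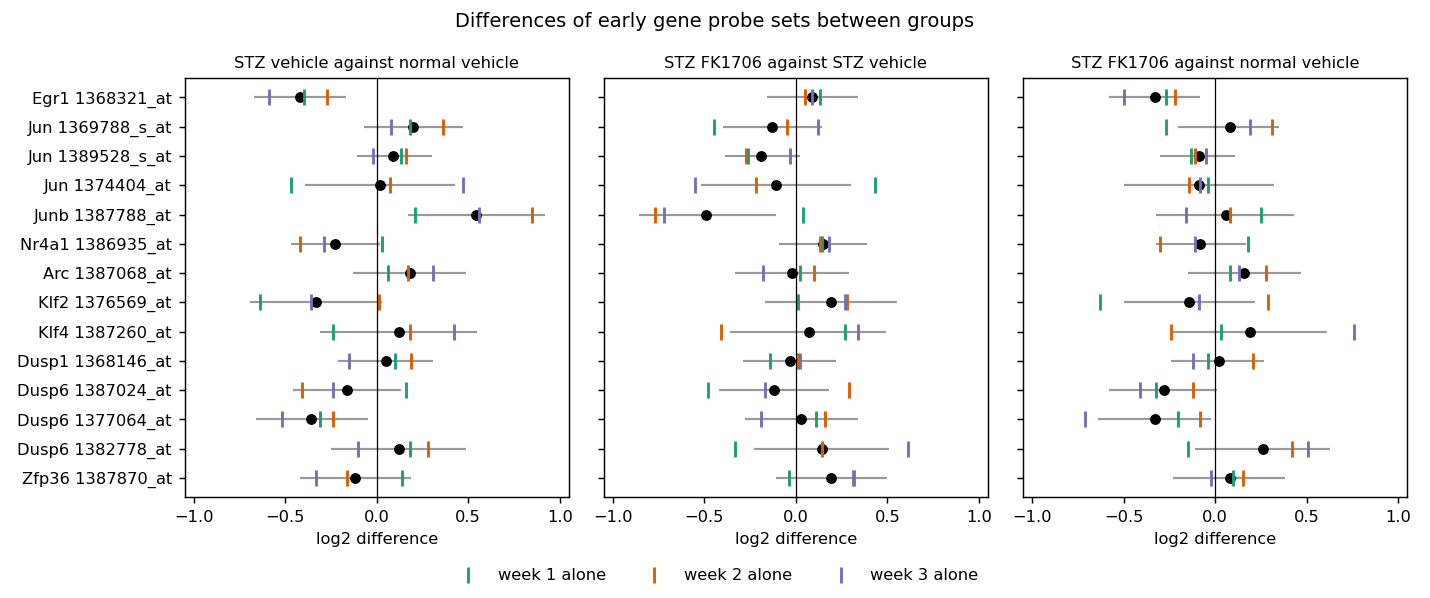
Log2 difference (x axis) of each tested early gene probe set in the 3 comparisons, as a black point with its 95% interval from limma, and in each week alone as a coloured tick. Egr1 and 1 Dusp6 probe set lie below 0 in all weeks in both comparisons with normal, and Junb lies above 0 in all weeks in STZ vehicle against normal.

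Jun, the AP-1 subunit that injured sensory neurons are known to induce, was measured by 3 probe sets. Probe set 1369788_s_at had 9.49, 9.06 and 9.10 in normal pools, 9.67, 9.42 and 9.18 in diabetic pools with vehicle, and 9.22, 9.37 and 9.30 in those with FK1706. Its STZ vehicle pools were higher than normal in each week, by 0.18, 0.36 and 0.08, yet the ranges overlapped and the difference of 0.20 (SE 0.123, 95% interval -0.07 to 0.47) had an adjusted p of 0.653. Probe set 1389528_s_at had 9.24, 9.03 and 9.16 in normal pools, 9.37, 9.19 and 9.14 in diabetic pools with vehicle, and 9.11, 8.92 and 9.11 in those with FK1706. The FK1706 pools lay below all STZ vehicle pools, with the nearest pools at 9.11 and 9.14, and the difference was -0.19 (SE 0.0933, 95% interval -0.39 to 0.02, adjusted p = 0.999). Probe set 1374404_at went from 7.53 in week 1 to 7.81 and 8.03 in STZ vehicle pools, while it went from 8.0 to 7.74 and 7.56 in normal and from 7.96 to 7.60 and 7.49 in FK1706 pools. Its slopes per week were thus 0.25, -0.22 and -0.24 log2 units, and the test of a difference in slope had an unadjusted p of 0.0224 and an adjusted p of 0.999. The other Jun probe sets did not show that order, with slopes of -0.24 and -0.11 in STZ vehicle pools. All 3 probe sets had a positive difference for STZ vehicle against normal (0.20, 0.09 and 0.02) and a negative one for FK1706 against vehicle (-0.13, -0.19 and -0.11). Both comparisons use the same STZ vehicle pools, which favours opposite signs, and the 3 probe sets read the same RNA. By week, 1374404_at changed sign in both, with -0.47, 0.07 and 0.47 in the first and 0.43, -0.22 and -0.55 in the second. On the deposited scale, 1389528_s_at and 1374404_at were at -0.01 and -0.10 for STZ vehicle against normal, where the median of all probe sets was itself -0.10.

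Nr4a1, an orphan nuclear receptor induced by calcium and growth factors, had 9.05, 9.44 and 9.31 in normal pools, 9.09, 9.02 and 9.01 in diabetic pools with vehicle, and 9.23, 9.14 and 9.20 in those with FK1706. The STZ vehicle pools spanned only 0.07 and lay below all FK1706 pools, while both diabetic ranges overlapped the normal one. Before normalization the STZ vehicle and FK1706 ranges overlapped, with deposited signals of 631.3, 482.2 and 419.5 against 627.8, 510.6 and 469.7. FK1706 against vehicle was 0.15 (SE 0.11, 95% interval -0.09 to 0.39, adjusted p = 0.999), and 0.14, 0.13 and 0.18 by week. STZ vehicle against normal was -0.23 (SE 0.11, 95% interval -0.47 to 0.02, adjusted p = 0.586), and moved to -0.12 without the week 2 normal pool and to -0.35 without the week 1 normal pool. Among all tested probe sets, 3.3% had FK1706 pools wholly above the STZ vehicle pools and 3.52% wholly below. Of the 14 early gene probe sets, 1 lay above (Nr4a1) and 1 below (Jun 1389528_s_at).

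Klf2 and Klf4 are zinc finger factors, known for keeping vascular endothelium quiescent and, for Klf4, for pluripotency and epithelial differentiation. Klf2 probe set 1376569_at had 8.28, 7.94 and 8.32 in normal pools, 7.64, 7.95 and 7.96 in diabetic pools with vehicle, and 7.65, 8.23 and 8.23 in those with FK1706. The ranges overlapped in every comparison, and the week 1 diabetic pools of both treatments were the lowest of the 9. STZ vehicle against normal was -0.33 (SE 0.164, 95% interval -0.69 to 0.03, adjusted p = 0.59), made up of -0.64, 0.01 and -0.36 by week. It was -0.13 without the week 1 normal pool and -0.52 without the week 2 normal pool. Summed signal of the 10 endothelial markers on the array was 2337 to 2595 in normal pools and 2301 to 2595 in STZ vehicle pools, and Pecam1, Flt1, Vwf and Nos3 among them lay below the filter. The other 4 of 5 Klf2 probe sets also lay below it, with mean log2 signals of 7.32 for 1375248_at and 6.18 for 1394068_x_at, and deposited signals of at most 11.4 for 1386040_at and 28.5 for 1386041_a_at. Klf4 had 7.92, 7.82 and 7.27 in normal pools, 7.68, 8.0 and 7.69 in diabetic pools with vehicle, and 7.95, 7.59 and 8.03 in those with FK1706. These ranges overlapped throughout, and its differences were 0.12, 0.07 and 0.19 (SE 0.194 each, adjusted p = 0.885, 0.999 and 0.828).

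Arc encodes a cytoskeletal protein of active synapses whose transcript travels into dendrites in the brain. Its signal was 7.47, 7.31 and 7.53 in normal pools, 7.53, 7.49 and 7.83 in diabetic pools with vehicle, and 7.55, 7.59 and 7.65 in those with FK1706, close to the filter at 7.36. The FK1706 pools lay above all normal pools, with the nearest at 7.55 and 7.53, and had a difference of 0.16 (SE 0.139, 95% interval -0.15 to 0.47, adjusted p = 0.783). Before normalization the ranges overlapped, with deposited signals of 191.9, 149.9 and 152.0 in normal pools and 175.8, 162.3 and 159.1 in FK1706 pools. Over the alternatives this difference ran from 0.02 to 0.21. STZ vehicle pools were higher than normal in each week, by 0.06, 0.17 and 0.31, with overlapping ranges and a difference of 0.18 (SE 0.139, adjusted p = 0.723).

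Dusp1 and Dusp6 are phosphatases that remove the activating phosphates from MAP kinases, Dusp6 with a preference for ERK. The tested Dusp1 probe set had 8.12, 8.28 and 8.52 in normal pools, 8.23, 8.47 and 8.38 in diabetic pools with vehicle, and 8.09, 8.48 and 8.40 in those with FK1706. Its groups overlapped, and its differences were 0.05 (95% interval -0.21 to 0.31), -0.03 (-0.29 to 0.22) and 0.02 (-0.24 to 0.27). Week 1 was the lowest week in all 3 groups, with week 3 higher than week 1 by 0.29 (SE 0.116) and an adjusted p of 0.482 over the weeks. The second Dusp1 probe set, 1368147_at, lay below the filter at a mean of 6.49.

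The 3 Dusp6 probe sets went apart. Probe set 1377064_at had 8.41, 8.25 and 8.22 in normal pools, 8.09, 8.01 and 7.70 in diabetic pools with vehicle, and 8.21, 8.17 and 7.51 in those with FK1706. All diabetic pools lay below all normal pools, with the nearest at 8.21 and 8.22. In deposited signal the ranges overlapped, with the week 3 normal pool at 253.0 and the week 1 STZ vehicle and FK1706 pools at 296.6 and 294.4. STZ vehicle against normal was -0.36 (SE 0.139, 95% interval -0.66 to -0.05, 1.28-fold, unadjusted p = 0.0267, adjusted p = 0.509 in limma), and FK1706 against normal was -0.33 (SE 0.139, 95% interval -0.64 to -0.02, adjusted p = 0.595). Week 3 weighed most in the latter, since leaving out the week 3 FK1706 pool gave -0.18 and leaving out the week 3 normal pool gave -0.19. Without the week 3 normal pool, STZ vehicle against normal was -0.22. Probe set 1387024_at had 9.14, 9.36 and 9.33 in normal pools, 9.30, 8.95 and 9.09 in diabetic pools with vehicle, and 8.82, 9.25 and 8.92 in those with FK1706. It had the same sign as 1377064_at in both comparisons with normal, at -0.16 (adjusted p = 0.744) and -0.28 (adjusted p = 0.628), with overlapping ranges. For STZ vehicle it was 0.00 without the week 2 STZ vehicle pool and -0.34 without the week 1 STZ vehicle pool, so its size depends on single pools. In FK1706 against normal, leaving out a pool or a week gave -0.43 to -0.18 for this probe set. Probe set 1382778_at had 8.11, 7.90 and 7.69 in normal pools, 8.29, 8.18 and 7.59 in diabetic pools with vehicle, and 7.96, 8.33 and 8.20 in those with FK1706. Its differences from normal had the opposite sign, 0.12 (adjusted p = 0.866) and 0.26 (adjusted p = 0.689), so no direction can be given for the gene.

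Zfp36, which binds AU-rich elements and speeds the decay of early gene and cytokine mRNAs, had 7.62, 7.87 and 7.98 in normal pools, 7.76, 7.70 and 7.65 in diabetic pools with vehicle, and 7.72, 8.02 and 7.96 in those with FK1706. The groups overlapped, and the differences were -0.12 (SE 0.138, adjusted p = 0.831), 0.19 (adjusted p = 0.999) and 0.08 (adjusted p = 0.901). Its diabetic vehicle pools were higher than normal in week 1, by 0.14, and lower in weeks 2 and 3, by values of -0.16 and -0.33.

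**Figure D3:**
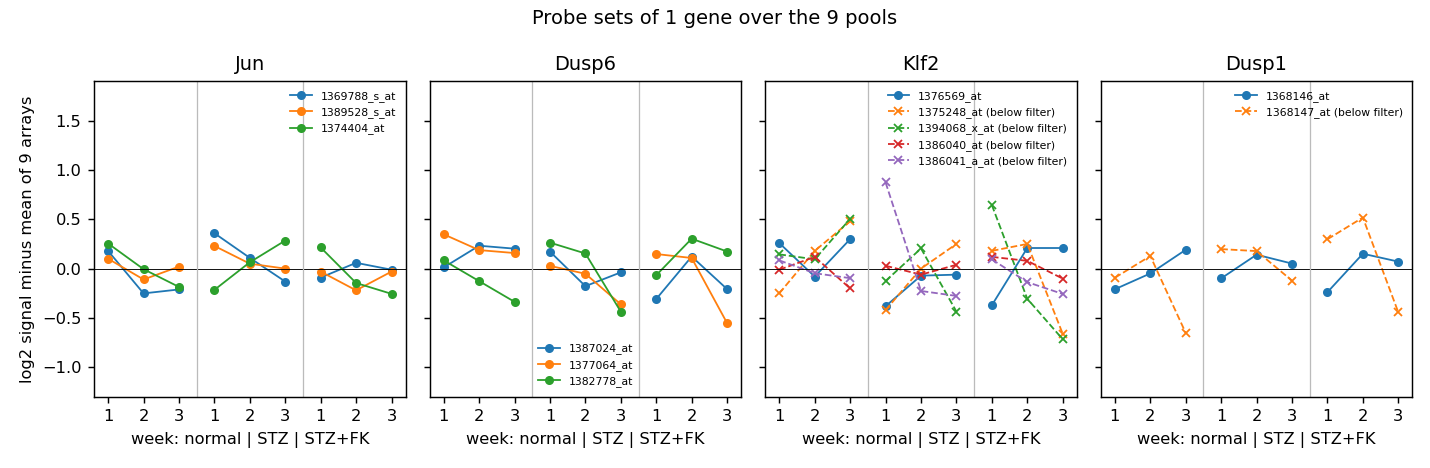
Log2 signal of every probe set of Jun, Dusp6, Klf2 and Dusp1 minus its mean over the 9 arrays (y axis), by week within each group (x axis), with probe sets below the filter as dashed lines. The 3 Dusp6 probe sets differ in direction in FK1706 pools, and the Jun probe set 1374404_at goes up over the weeks in STZ vehicle pools only among the 3 Jun probe sets.

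Ranges of 3 pools that did not overlap were found for 1 early gene probe set above normal (Junb) and 2 below (Egr1 and Dusp6 1377064_at) in STZ vehicle pools, beside 6.13% and 6.62% of all probe sets. In FK1706 against normal there was 1 above (Arc) and 2 below (the same pair), beside 5.89% and 5.97%. These ranges are those after normalization. In deposited signal, the ranges of Egr1, Dusp6 1377064_at and Arc overlapped the normal ones, while that of Junb in STZ vehicle pools did not. A difference of the same sign in all 3 weeks was found in STZ vehicle against normal for 3 early gene probe sets on the higher side (15.4% of all) and 2 on the lower side (15.3%). In FK1706 against vehicle it was found for 3 higher (Egr1, Nr4a1 and Klf2, beside 12.0% of all) and 1 lower (Jun 1389528_s_at, beside 11.8%). In FK1706 against normal it was found for 1 higher (Arc, beside 14.0%) and 5 lower (beside 13.8%), and those 5 came from 3 genes, Egr1, Jun and Dusp6. Over the weeks, with all groups together, 0 of 14 probe sets passed (0.0525% of all), and 1 had an unadjusted p under 0.05 in limma, against 10.7% of all. That was Dusp6 1377064_at, lower in week 3 than in week 1 by a log2 difference of -0.42 (SE 0.139). Its adjusted p in the moderated F test over all 3 weeks was 0.403. A difference between groups in the slope over weeks passed for 0 of 14 and for 0.0% of all, and had an unadjusted p under 0.05 for 1 of 14 (Jun 1374404_at) against 3.9% of all.

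No pair of the 10 genes passed a test of correlation between pools. Over the 9 arrays, the 45 pairs had a median Pearson r of -0.04, from -0.73 to 0.61, and in exact permutation tests 0 pairs passed after Benjamini-Hochberg adjustment (smallest adjusted p = 0.663) and 3 had an unadjusted p under 0.05. Egr1 and Arc gave the lowest value, with r = -0.73 (exact permutation p = 0.0218) and Spearman's rho = -0.72 (exact permutation p = 0.0369). It was -0.89 without the 2 arrays farthest from the median of Egr1 and -0.79 with the week means removed. On the deposited scale it was 0.20. There, signal differs between arrays for most probe sets, and the median r of the 45 pairs was 0.41. Group means were not removed in any of these values, and mean Egr1 was lower and mean Arc higher in both diabetic groups than in normal. The part of these group differences in the correlation of Egr1 and Arc was not tested. Of the 6980 other genes compared, those most like Junb over the 9 arrays were Slc6a13 and Zrsr2-ps1 (both r = 0.91) and Mrpl10 (0.87). For Klf2 they were C12h12orf43 (0.89), Ggt5 (0.88) and Tapbp (0.87), and for Klf4 Esyt2 (0.89), Mtx1 (0.88) and Chrna6 (0.87). These are the highest of many correlations over few arrays and are given as a description.

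The genes around these 10 in the same pathways were taken in 8 lists, of which 53 genes passed the filter. None of the 53 passed in limma in any comparison. At an unadjusted p under 0.05 were 1 higher and 2 lower of the 53 in STZ vehicle against normal (8.7% of all probe sets), 0 in FK1706 against vehicle (3.37%), and 2 higher and 2 lower in FK1706 against normal (8.16%), so none of these counts exceeds the share of all probe sets. The Fos family was not tested, since 6 of 8 AP-1 partners were on the array and 0 reached the filter. Deposited signals of Fos, the classic immediate early gene, were 49.5 to 114.0, those of Fosb 2.5 to 18.3, and those of Atf3, an injury marker of sensory neurons, 16.1 to 149.0. Egr3, Egr4, Nr4a2 and Nr4a3 were also below the filter. Egr2, which Schwann cells also use for myelination, was at -0.05 (SE 0.109, adjusted p = 0.922) in STZ vehicle against normal.

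Among activity-regulated effectors, Nrn1, which encodes a neurite growth protein, was at 0.28 (SE 0.0598, adjusted p = 0.262) in STZ vehicle and at 0.38 (adjusted p = 0.109) in FK1706 pools against normal. The list's median was 0.02 and -0.04 in these comparisons over 10 tested genes. The list of feedback inhibitors of ERK, JAK-STAT and NF-kB signalling also took in the mRNA decay genes Zfp36l1 and Zfp36l2. Its 8 tested genes had a median of -0.19 in STZ vehicle against normal, from -0.29 to 0.13. Zfp36l1 (-0.29, SE 0.0809, adjusted p = 0.351) and Zfp36l2 (-0.24, SE 0.0999, adjusted p = 0.547), relatives of Zfp36 that also bring about mRNA decay, had an unadjusted p under 0.05. In FK1706 against vehicle the same list had a median of 0.12, from 0.03 to 0.35, and against normal 0.01. The first pair of these medians shares the STZ vehicle pools. Among glucocorticoid-responsive genes, which overlap with early genes in their regulation, Ddit4, an inhibitor of mTOR signalling, was at 0.46 (adjusted p = 0.347) in FK1706 against normal, while the 11 tested genes of that list had a median of 0.05, from -0.19 to 0.46. The 2 lower genes at an unadjusted p under 0.05 in that comparison were Camk2b (-0.28, adjusted p = 0.475) and Ppp1r15a (-0.31, adjusted p = 0.608 in limma). Camk2b is in the list of upstream kinases and factors, whose 8 tested genes had a median of -0.06, from -0.28 to 0.09. Ppp1r15a is among other early regulators, whose 11 tested genes had a median of -0.11, from -0.31 to 0.25.

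**Figure D4:**
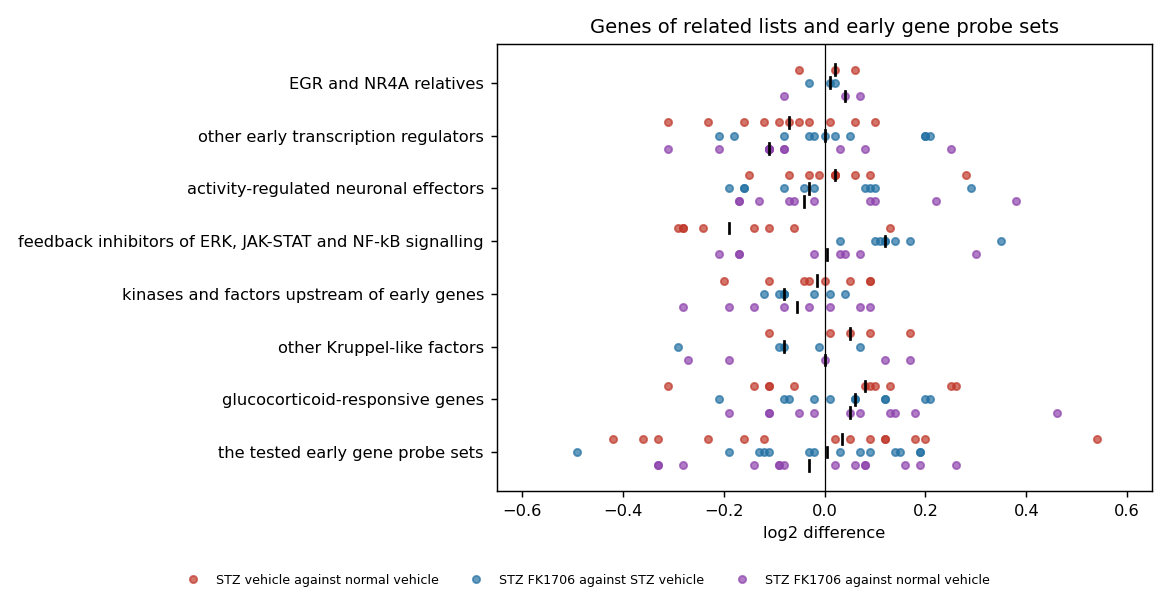
Log2 difference (x axis) of each tested gene of 7 related lists and of the 14 early gene probe sets (rows), with one colour per comparison and the median as a black bar. The list of feedback inhibitors, which takes in Zfp36l1 and Zfp36l2, has medians of -0.19, 0.12 and 0.01. The early gene probe sets spread from -0.49 to 0.54 around medians near 0.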

How the data were processed

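Each of 9 arrays measured pooled RNA of 5 rats, with 1 pool for each of 3 groups in weeks 1, 2 and 3. The authors deposited linear intensity values, 1 for each probe set and array, from MAS5 (per the submitters' processing notes, where version and scaling target are not stated). Controls (57 probe sets) were left out. To each value 18.7 (the 10th percentile) was added as an offset, log2 was taken and arrays were quantile normalized. The 9520 probe sets with a mean log2 at or above the 40th percentile (7.36) were tested in limma 3.58.1 (R 4.3.3; lmFit, eBayes with a trend, two-sided), with group and week as factors and Benjamini-Hochberg adjustment over all 9520 at 0.05. Week enters as a block because the labels give groups a shared collection week. Deviations from the group means of same-week pools of different groups correlated at -0.000529 to 0.32, and those of different-week pools at -0.291 to 0.121. These ranges overlap, so the values do not settle whether pools pair by week. Slopes came from a second limma model. The code was tested on simulated data. Correlations were computed in SciPy 1.17.1.

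All early gene probe sets are named. From each related list up to 4 genes with the largest moderated t in a comparison could be named, and Fos, Fosb, Atf3 and others below the filter are named to account for them. Genes, lists and the 10 marker lists were chosen with earlier results of these data known, and the promoters shown were picked after the values had been seen. The small number of arrays limits the precision. Symbols of all 10 genes were checked through Entrez identifiers against RefSeq (GRCr8). Promoter sequences are from RefSeq. Alternatives were other scalings, offsets, filters, no week block, a prior without a trend, 1 probe set per gene, and leaving out each pool or week.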

Additional observations from a re-analysis of the deposited data

How the results depend on the processing

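No early gene probe set passed in any comparison between groups under the 21 alternatives, with 840 alternative log2 differences of which 0 passed. The sign turned in 62 of them, and 21 of the 42 differences turned at least once. On the deposited scale, the sign turned in STZ vehicle against normal for Dusp1 (-0.05), Jun 1374404_at (-0.10) and Jun 1389528_s_at (-0.01), in FK1706 against vehicle for Dusp6 1377064_at (-0.03), and in FK1706 against normal for Dusp1 (-0.15), Jun 1369788_s_at (-0.10), Junb (-0.08) and Zfp36 (-0.08). The median of all probe sets was itself -0.10, -0.07 and -0.17 on that scale, and none of these values was larger in size than the median of its comparison. Leaving out a pool or a week gave, in STZ vehicle against normal, ranges of -0.03 to 0.15 for Dusp1, -0.01 to 0.29 for Dusp6 1382778_at, -0.20 to 0.28 for Jun 1374404_at and -0.10 to 0.30 for Klf4. In FK1706 against vehicle these were -0.08 to 0.06 for Arc, -0.10 to 0.02 for Dusp1, -0.07 to 0.18 for Dusp6 1377064_at, -0.09 to 0.38 for Dusp6 1382778_at, -0.32 to 0.06 for Dusp6 1387024_at, -0.25 to 0.04 for Jun 1369788_s_at, -0.38 to 0.11 for Jun 1374404_at and -0.15 to 0.30 for Klf4. In FK1706 against normal they were -0.08 to 0.10 for Dusp1, -0.04 to 0.25 for Jun 1369788_s_at, -0.24 to 0.02 for Jun 1374404_at, -0.12 to 0.17 for Junb, -0.36 to 0.10 for Klf2, -0.10 to 0.41 for Klf4 and -0.20 to 0.03 for Nr4a1. Without the week block (no pairing of pools by week), 0 early gene probe sets passed in each comparison. Over the weeks, 6 early gene probe sets passed on the deposited scale, all lower in week 3 than in week 1, where 5936 of 9520 probe sets passed and 5911 of them were lower. They were Egr1 (-0.56), Nr4a1 (-0.39), Jun 1369788_s_at (-0.72) and 1389528_s_at (-0.55), and Dusp6 1377064_at (-0.77) and 1382778_at (-0.64). The array's overall signal was lowest in week 3 in each group. Of all probe sets in STZ vehicle against normal, 6 passed as reported, 12 on the deposited scale, 1 without the week block, 0 without the filter, 0 with a prior without a trend, and 0 to 11 when pools or weeks were left out. In FK1706 against normal 0 passed as reported and 89 on the deposited scale. The 5 early gene probe sets below the filter, 4 of Klf2 and 1 of Dusp1, were outside the main test. None of them passed between groups in the alternative without the filter. In STZ vehicle against normal, Klf2 was there at -0.19 (1375248_at), -0.37 (1394068_x_at), 0.03 (1386040_at) and 0.14 (1386041_a_at), and Dusp1 1368147_at at 0.29. Their low signal limits what can be said of them.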
